A study of Mus musculus with 16 samples.

Results

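Transcripts that GENCODE release M21 classes as nonsense_mediated_decay were followed through the cytoplasm and the ribosome fractions of mouse hepatocytes. A transcript was taken as a member when it reached 1 FPKM, a measure of fragments scaled for transcript length and library, in at least 2 of the 16 libraries. Of 5587 transcripts of this class in the deposited table, 1190 from 992 genes met the rule, out of 116728 annotated transcripts, of which 21481 of all classes reached the same level. A further 1598 transcripts of the class were listed at 0 in every library. Just inside the threshold lay Ndufv1-203, Flt3l-208 and Selenoi-201, with second-highest values of 1.0006, 1.0026 and 1.0038 FPKM, and just outside it Ric1-204, Dcun1d1-210 and Sfxn4-202, with 0.9992, 0.9964 and 0.9963 FPKM. Members were thus chosen by the measured FPKM of these same libraries, so the levels of members describe the choice, and a member that passed through 1 group alone (35 members) had to differ between groups. How many of the calls below fell on such members was not counted.

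Nonsense-mediated decay is the surveillance pathway that degrades mRNAs on which a ribosome meets a stop codon too early. In mammals a stop codon is usually read as premature when an exon junction complex, left behind by splicing, still sits well downstream of it, and the helicase UPF1 then joins the terminating ribosome and recruits the SMG proteins that cut the RNA or remove its cap and tail. Because the signal is read by a translating ribosome, targets have to engage at least 1 ribosome, and genes of many splicing factors use such isoforms to limit their own levels.

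The cells were hepatocytes of FVB mice, isolated in the presence of cycloheximide, which holds ribosomes on their mRNAs. Since decay is read by a translating ribosome, it cannot be taken as unchanged during isolation, and it was not measured. Mice had normal chow (CHOW) or, for 4 weeks, a diet with DDC (3,5-diethoxycarbonyl-1,4-dihydrocollidine), a porphyrinogenic compound that injures hepatocytes and bile ducts. For each diet there were libraries of cytoplasmic RNA, of monosomes (1 ribosome) and of polysomes split by ribosome number into light (2 to 4) and heavy (over 5), with 2 libraries in each of the 8 groups. In the labels the chow fractions carry the names CH1_CH2 and CH3_CH4 and the chow cytoplasm CH1 and CH3. The DDC fractions are named B and C and the DDC cytoplasm C2 and D2. Fractions of 1 preparation are not independent animals, and it is not stated for every library that it came from a separate animal, so p-values measure the spread between these libraries.

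Members were mostly short reading frames inside spliced transcripts. They had a median of 7 exons and 1358.5 bases, and their annotated reading frame had a median of 276 bases without the stop codon, while the main protein_coding transcript of the same genes had a median coding length of 1098 bases. For 351 members the annotation lacks the start of the reading frame, and the median over the 839 with a complete start was 270 bases. From the stop codon to the last exon junction there were 29 to 6182 bases, with a median of 336 bases, and 1186 of the 1190 had at least 50. The stop codon was TGA in 717 members (60.3%), TAG in 240 (20.2%) and TAA in 233 (19.6%). Against the main protein_coding transcript (1171 members had one), the exons up to the stop differed by a skipped exon in 357, by an extra exon in 278, by another splice site in 450 and by a retained intron in 19. For 158 members no such difference lay upstream of the stop, and 55 ended at the same stop codon as the main transcript. These are properties of the annotation and say nothing of how a given RNA was made.

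**Figure D1:**
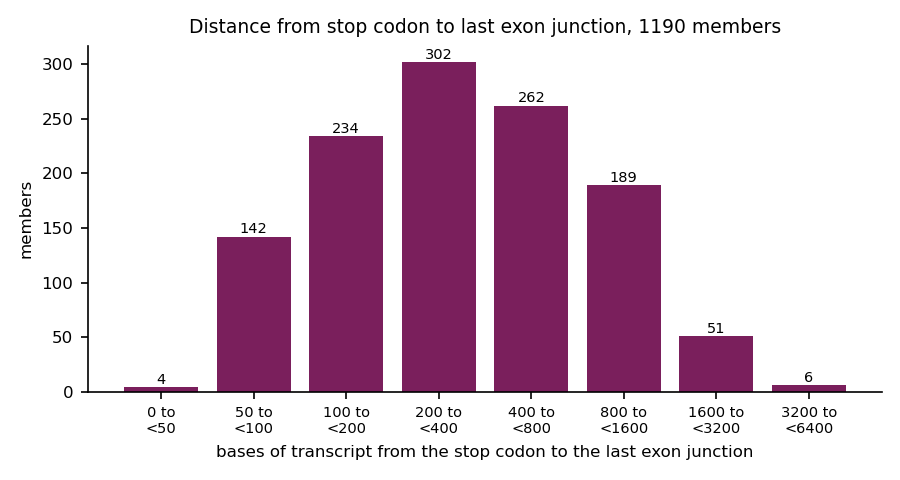
Number of members (vertical axis) by the bases of transcript between the end of the stop codon and the last exon junction (horizontal axis, 8 classes). Only 4 of 1190 members lay under 50 bases, and the class of 200 to under 400 bases was the fullest with 302.

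The annotated reading frames of members end at the stop codons that place them in this class; translation of them was not measured. Shown are abundant members and members whose placement differed most between fractions or diets. Each line gives the last 60 bases of the annotated reading frame, 5′ to 3′ along the transcript, with the stop codon in capitals; positions of the stop codon are on GRCm38 and sequences are from the GENCODE M21 transcripts.
Adh1-202, plus strand, stop at chr3:138282620-138282622: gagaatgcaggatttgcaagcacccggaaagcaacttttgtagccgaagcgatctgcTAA
Adh5-207, plus strand, stop at chr3:138447906-138447908: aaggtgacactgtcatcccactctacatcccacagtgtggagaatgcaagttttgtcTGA
Azgp1-202, plus strand, stop at chr5:137985345-137985347: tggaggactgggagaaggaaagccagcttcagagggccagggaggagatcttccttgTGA
Prdx6-208, minus strand, stop at chr1:161244207-161244209: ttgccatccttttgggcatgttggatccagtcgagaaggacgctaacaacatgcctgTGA
Stard10-209, plus strand, stop at chr7:101343202-101343204: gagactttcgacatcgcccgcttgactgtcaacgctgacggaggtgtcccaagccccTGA
Rpl13a-205, minus strand, stop at chr7:45126713-45126715: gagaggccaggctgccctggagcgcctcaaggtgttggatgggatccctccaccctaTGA
Ddx5-205, minus strand, stop at chr11:106782679-106782681: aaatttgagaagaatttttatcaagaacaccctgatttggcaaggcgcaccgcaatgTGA
Copz2-203, plus strand, stop at chr11:96856674-96856676: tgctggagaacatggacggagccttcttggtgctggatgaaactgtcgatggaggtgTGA
Psmd13-211, plus strand, stop at chr7:140886553-140886555: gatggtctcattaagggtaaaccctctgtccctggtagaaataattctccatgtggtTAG
Hnrnpu-206, minus strand, stop at chr1:178325281-178325283: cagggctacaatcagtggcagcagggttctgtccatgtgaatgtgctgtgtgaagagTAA
Adh1-202 ends after a frame of 132 bases, against 1125 in Adh1-201, and has another splice site than that transcript upstream of its stop. Adh5-207 lacks an exon of Adh5-201 and stops after 168 bases, and Psmd13-211 lacks an exon of Psmd13-201 and stops after 216 bases. Hnrnpu-206 is the opposite case, with a frame of 2379 bases against 2400 in Hnrnpu-201, and Hnrnpu-208, whose annotated frame starts incomplete, ends at the same stop codon.

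The 4 chow libraries of replicate 1 stood apart from the other 12: they held Xist (0.039 to 2.45 FPKM) and listed the Y-linked Ddx3y, Eif2s3y, Kdm5d and Uty at 0, while the others listed Xist at 0 and held Eif2s3y, so sex and replicate run together within chow. Low values of genes with a single 1-exon transcript fell on whole multiples of a smallest step, with 92.2% to 100% of those up to 6 steps within 0.08 of a whole number. For a transcript of 1000 bases, 1 FPKM equalled 10.9 to 56.5 such steps: 10.9 and 13 in chow heavy polysomes, 14.2 and 25.2 in DDC heavy polysomes, 16.9 to 27.7 in monosomes and 25.5 to 56.5 elsewhere. A value of 1 FPKM is therefore coarsest on chow heavy polysomes, and because Cuffnorm scaled the libraries the step is a resolution and not the number of reads sequenced. Hepatocyte markers summed to 11263 to 34008 FPKM in chow and 5496 to 15707 in DDC. The 5 ductal markers summed to at most 0.978 FPKM in chow, with Epcam at 0, and to 10.4 to 107.8 in DDC. Macrophage markers summed to 24.0 to 202 and 256 to 2954 FPKM and stellate cell markers to 1.15 to 6.03 and 26.3 to 71.4 FPKM; their part in any diet difference below was not tested. Fewer cells of a type and less RNA per cell cannot be told apart in such bulk samples.

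Members held a small and similar part of each library. Their FPKM summed to 1.52% and 1.54% of all FPKM in chow cytoplasm and to 1.64% to 2.19% in the other 14 libraries. Within their own genes the members together held 17.1% and 17.9% of FPKM in chow cytoplasm, 18.8% and 18.03% in chow monosomes, 20.3% and 20.7% in chow light polysomes and 22.2% and 21.1% on chow heavy polysomes. In DDC the same sums were 18.6% and 17.8%, 17.1% and 16.1%, 19.5% and 16.9%, and 20.7% and 17.0%. Thus all 6 chow fraction libraries lay above both chow cytoplasmic libraries, while in DDC both monosome libraries lay below both cytoplasmic ones and the polysome libraries overlapped them.

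A typical member was a minor isoform. The median share of the gene, taken over members within a library, ran from 6.12% to 13.6%, and the median member stood at 0.66 to 1.39 FPKM. By group, the median over members of the mean share was 10.2% in chow cytoplasm, 12.2% in chow monosomes, 13.3% in chow light polysomes and 12.2% on chow heavy polysomes, and 12.2%, 14.4%, 14.4% and 12.2% in the DDC groups. The spread was wide: between 181 members in chow cytoplasm and 322 in chow monosomes had a mean share above 50% of their gene. Only 147 of 1190 members reached 1 FPKM in all 16 libraries, and 175 did so in exactly 2. Among the 153 members with a mean of 10 FPKM or more, the median share was 36.3% in chow cytoplasm, 54.5% in chow monosomes and 43.5% on chow heavy polysomes.

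Many members were listed at 0 in single libraries. The share at 0 was 12.2% and 14.4% in chow cytoplasm, 26.5% and 42.9% in chow monosomes and 35.5% and 39.5% on chow heavy polysomes. In DDC it was 11.1% and 10.3%, 27.1% and 20.3%, and 31.2% and 23.2% in the same fractions. Light polysomes had 14.7% and 15.2% in chow and at most 16.8% in DDC. Of the protein_coding transcripts of the same genes that are among the 21481, 6.4% to 39.4% were at 0, with the highest share also in chow monosome replicate 2. Replicates agreed less for members than for all transcripts tested, with correlations of log2(FPKM + 1) of 0.786 to 0.943 against 0.886 to 0.956.

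**Figure D2:**
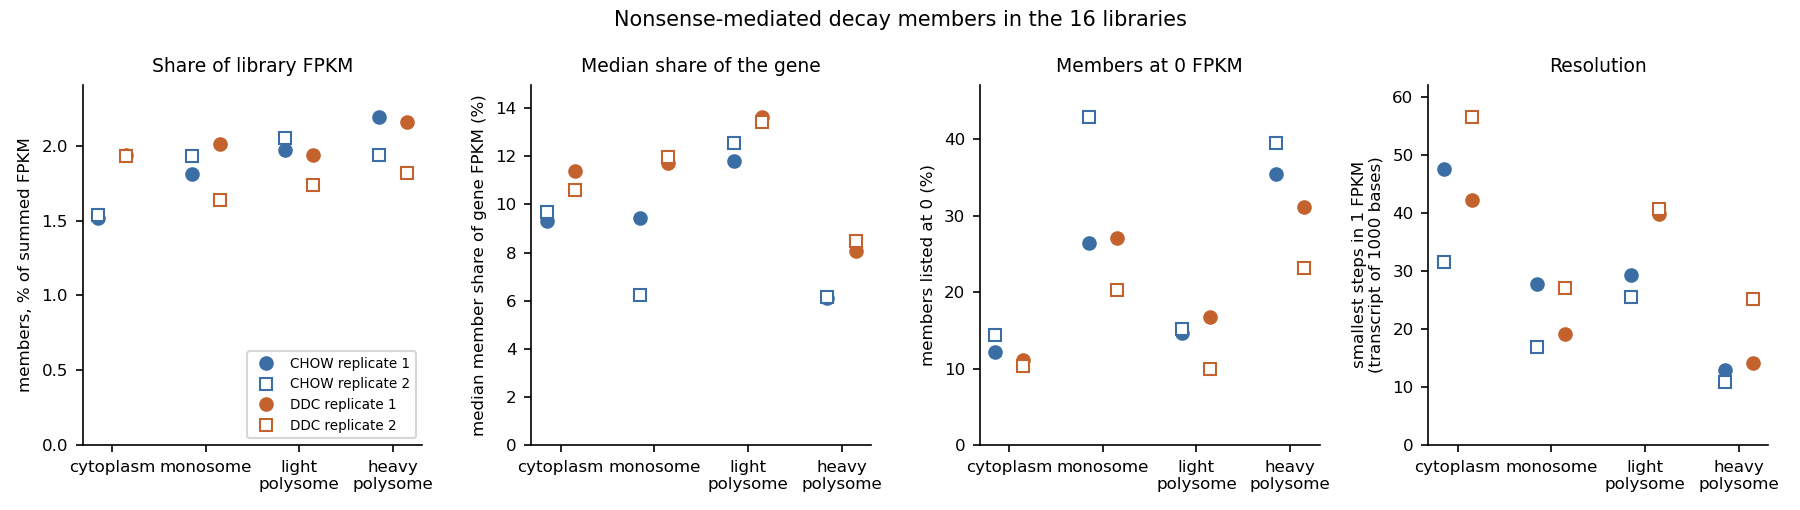
Plots of 4 measures of the members in each library by fraction (horizontal axis), blue for CHOW and orange for DDC, filled circles for replicate 1 and open squares for replicate 2: percent of library FPKM, median percent of the gene's FPKM, percent of members listed at 0, and smallest steps in 1 FPKM for a transcript of 1000 bases. Both chow heavy polysome libraries and DDC heavy polysome replicate 1 had the coarsest resolution (10.9 to 14.2 steps), and chow monosome replicate 2 had the most members at 0 (42.9%), before both chow heavy polysome libraries (35.5% and 39.5%).

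Genes of liver metabolism and secretion led the most abundant members. The 12 with the highest mean FPKM were isoforms of Adh1 (alcohol dehydrogenase), Serpinc1 (antithrombin), Cyb5a (cytochrome b5), Serpinf1 (pigment epithelium-derived factor), Azgp1 (a secreted zinc-binding glycoprotein), Prdx6 (a peroxiredoxin), Mbl1 (a mannose-binding lectin), Stard10 (a phospholipid transfer protein), Gpi1 (glucose phosphate isomerase), Serf2 and the ribosomal protein Rpl13a (2 isoforms). Several of them exceeded the summed protein_coding transcripts of the gene in a ribosome fraction. Mbl1 is annotated as a polymorphic pseudogene with no protein_coding transcript, so its member makes up 100% of the gene.

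Adh1-202 was at 238 and 385 FPKM in chow cytoplasm, 1004 and 1007 in monosomes, 1560 and 1399 in light polysomes and 6607 and 5032 on heavy polysomes. Summed FPKM of all transcripts was 445688 and 498983 in chow cytoplasm and 1379630 and 1359984 on chow heavy polysomes. The rise in level thus depends on how libraries are scaled. All members together summed to 6763 and 7663 FPKM in chow cytoplasm and to 30282 and 26366 on chow heavy polysomes. This isoform thus weighs heavily on the summed shares above. Its share of Adh1 was 25.6% and 33.9% in cytoplasm, 75.9% and 82.4% in monosomes and 75.4% and 74.7% on heavy polysomes, without overlap between cytoplasm and fractions. In DDC its share was 49.3% and 26.4% in cytoplasm and 57.5% to 75.9% in the fractions. The cytoplasm and the fractions were not compared by a test here.

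By estimated FPKM Serpinf1-208 (support level 5) and Prdx6-208 (level 1) were the main isoform in every library. Serpinf1-208 held 59.3% and 65.9% of its gene in chow cytoplasm, 84.1% and 86.5% in monosomes and 82.4% and 82.7% on heavy polysomes. Prdx6-208 held 65.8% and 68.0%, 90.7% and 88.3%, and 58.0% and 59.9% in the same groups, so its heavy polysome share lay below its monosome share. Both lack an exon of the main protein_coding transcript and stop after 165 and 228 bases.

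Azgp1-202 was at its highest in chow light polysomes (1185 and 1190 FPKM), with 724 and 869 in monosomes, 485 and 513 on heavy polysomes and 83.7 and 135 in cytoplasm. The protein_coding transcripts of Azgp1 stood at 224 and 190 FPKM in chow monosomes and at 2167 and 2202 on heavy polysomes. The member's share of the gene was thus 76.3% and 82.0% in monosomes and 18.3% and 18.9% on heavy polysomes. Its ratio to the protein_coding transcripts fell by 4.07 on the log2 scale between these fractions (SE 0.79, adjusted p = 0.00682), a call that was lost without the chow libraries of replicate 1 (adjusted p = 0.0733).

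**Figure D3:**
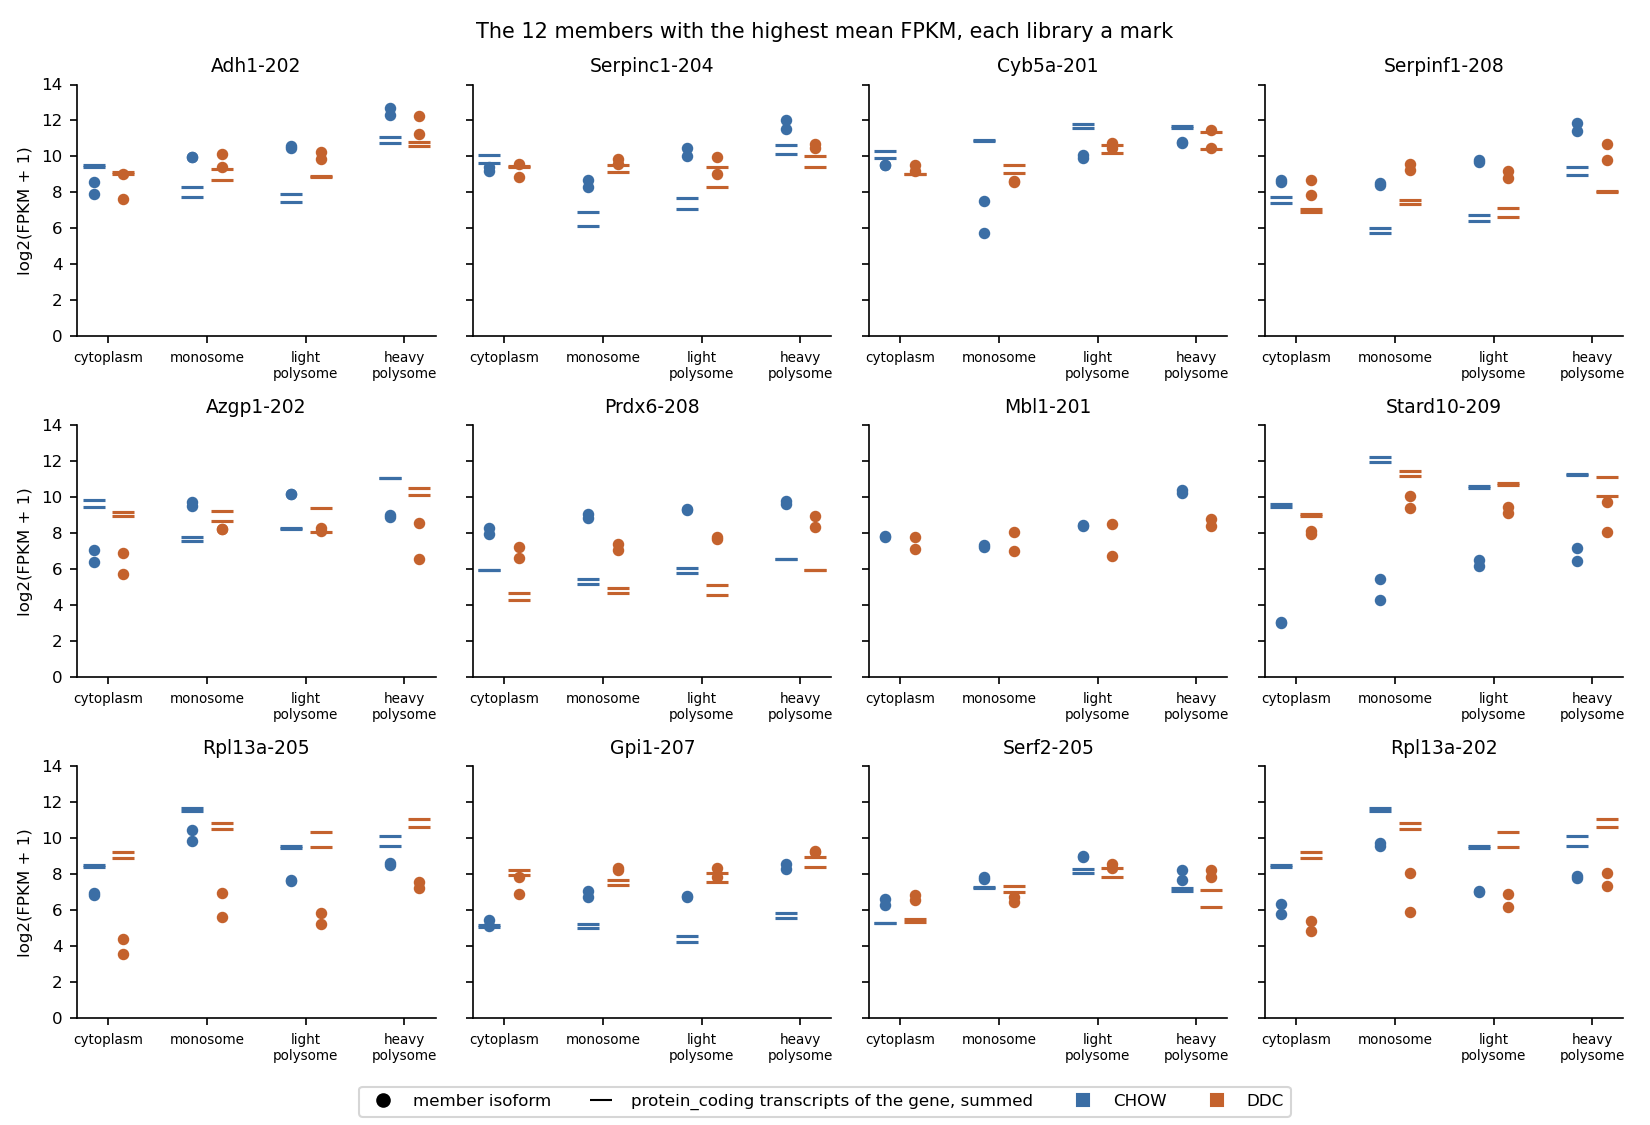
The 12 members with the highest mean FPKM (dots) and the summed protein_coding transcripts of the same gene (bars) by fraction (horizontal axis), on a log2(FPKM + 1) axis, with each library as a mark and diets in blue (CHOW) and orange (DDC). Prdx6-208 lies above its partners throughout, Azgp1-202 lies above them in chow monosomes and light polysomes and below them in chow cytoplasm and on heavy polysomes, and Stard10-209 is higher in all DDC than in all chow libraries; Mbl1 has no protein_coding transcript.

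The first comparison asked which members were on heavy polysomes rather than monosomes. Levels were compared as log2(FPKM + 1), a scale that understates the change of low values, with limma across all 21481 transcripts and 8 group means, and an adjusted p under 0.05 was called. In chow 291 of 1189 members were called, 149 higher on heavy polysomes and 142 lower, where 31.6% of all transcripts tested were called, 17.5% higher and 14.1% lower. The share of members, 24.5%, was below that background, and below the 33.2% of the protein_coding transcripts of the same genes. Summed FPKM was 1379630 and 1359984 on chow heavy polysomes and 764465 and 812204 in chow monosomes. With libraries scaled to equal totals the split was 84 higher and 184 lower. This scaling moved the median of all transcripts by -0.15, and abundant transcripts by more, since the scale understates shifts of low values. In DDC 147 of 1190 members were called, 69 higher and 78 lower, against a background of 18.3% (10.5% higher and 7.80% lower). Summed FPKM was 1089500 and 855954 on DDC heavy polysomes and 611453 and 665906 in DDC monosomes. With equal totals the DDC split was 35 and 131, with a shift of the median of -0.24 and again more for abundant transcripts. Of the members called in each diet, 76 were called in both with the same direction, which is 26.1% of the chow calls and 51.7% of the DDC calls, and the diets share no library here. The same overlap over all transcripts was not computed, so this is not read as a trait of the members. Among the 153 members with a mean of 10 FPKM or more, 75 were called in chow (51 higher and 24 lower) beside 56.1% of all transcripts that abundant, and 38 in DDC (27 higher and 11 lower) beside 34.6%.

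A second measure set each member against the other protein_coding transcripts of its gene. It is the log2 ratio of the member to their sum, each with 0.1 FPKM added, and it is free of the scaling between libraries apart from that added value. It could be formed for 1061 members, as 129 have no such partner that passed the filter. On this ratio 179 of 1060 members were called between heavy polysomes and monosomes in chow, 67 higher and 112 lower, beside 16% of all 13201 transcripts tested. The members' 16.9% was near the background, with 6.32% higher and 10.6% lower beside 6.79% and 9.19% of all transcripts. The median difference over members was -0.54, against -0.23 over all transcripts tested and -0.04 over the protein_coding transcripts of the same genes. Where a gene has a pair of protein_coding transcripts, their ratios mirror each other. This tends to centre the last median by construction, so it is no independent reference for the members. Of the 13201 transcripts 9085 were protein_coding, with a median of -0.02 and 7.65% lower, so the median over all transcripts is partly centred too. Isoforms of other classes without protein_coding status were not set apart, so the shift is not read as a trait of the members in either diet. For 96 of the 179 calls a compared group was listed at 0 in both libraries.

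In DDC the ratio gave 15 called members, 5 higher and 10 lower on heavy polysomes, beside a background of 2.25% (0.962% higher and 1.29% lower), which was above the members' 1.41%. The median difference over members was -0.36, against -0.13 over all transcripts tested and 0.00 over the protein_coding transcripts of the same genes, which mirror each other as in chow. With the replicate number within each diet as a block, 6 were called (1 higher and 5 lower). This block follows the pairing of fractions of 1 preparation, which the main fit leaves out. It also ties the DDC cytoplasm to the DDC fractions by replicate number, although their labels differ. Without DDC monosome replicate 1 there were 9, without DDC heavy polysome replicate 1 there were 7, and without DDC heavy polysome replicate 2 there were 30. Ratio calls shared by both diets numbered 8, all in the same direction, and again the overlap over all transcripts was not computed.

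**Figure D4:**
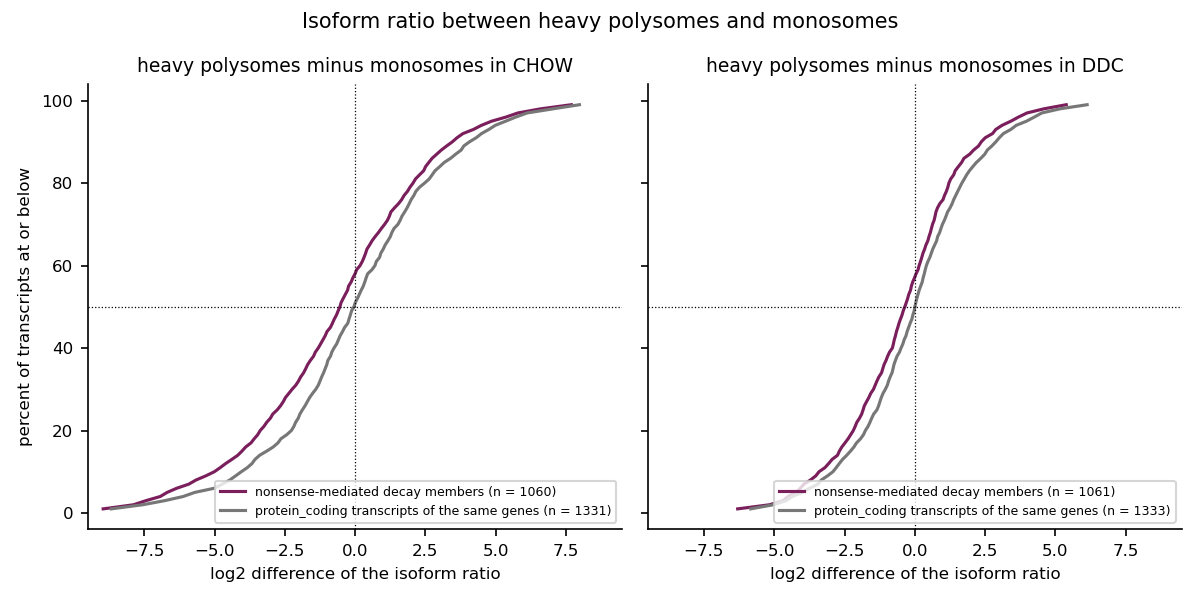
Percentiles (vertical axis, 1 to 99) of the log2 difference between heavy polysomes and monosomes in the isoform ratio (horizontal axis), for members (purple) and for the protein_coding transcripts of the same genes (grey), in CHOW and in DDC. The member curve lies to the left in both diets, with medians of -0.54 and -0.36 against -0.04 and 0.00, and the curves overlap over most of their range. Paired protein_coding transcripts of a gene mirror each other, which tends to centre the grey curve by construction. Over all transcripts tested (not drawn) the medians were -0.23 in CHOW and -0.13 in DDC. Most of these transcripts are protein_coding too, and isoforms of other classes were not set apart, so the shift is not read as a trait of the members.

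Members that were higher on heavy polysomes in chow included isoforms listed at 0 in the monosome libraries. Such a 0 is an estimate for isoforms that share sequence, and absence was not shown. Adh5-207, from the gene of the dehydrogenase that clears formaldehyde and S-nitrosoglutathione, was listed at 0 in both chow monosome libraries, stood at 2.12 and 16.7 FPKM in light polysomes and reached 217 and 235 FPKM on heavy polysomes (adjusted p = 1.61e-05). Psmd13-211, from a subunit of the proteasome lid, was at 0 and 0 in chow monosomes, 14 and 11.6 in light polysomes and 166 and 107 on heavy polysomes (adjusted p = 1.2e-07). Cope-208, from the epsilon subunit of the COPI vesicle coat, was at 0 in the chow monosome and light polysome libraries and at 109 and 51.8 FPKM on heavy polysomes (adjusted p = 2.38e-05). No fold is given against a group listed at 0, where the replicates also show no spread.

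The protein_coding partners of these genes were present in the same monosome libraries. Those of Adh5 stood at 81.9 and 103 FPKM, those of Psmd13 at 19.7 and 31.6 and those of Cope at 38.8 and 38.5. In DDC the same members were found in monosomes: Adh5-207 at 19.2 and 15.0 FPKM, with 96.4 and 101 on heavy polysomes. Psmd13-211 was at 26.1 and 20.1 FPKM in DDC monosomes and at 136 and 132 on heavy polysomes, a log2 difference of 2.50 (SE 0.25, adjusted p = 0.000321). Its share of Psmd13 was 44.3% to 55.8% in every DDC library, while in chow it was 54.5% and 54.9% in cytoplasm, 0 in monosomes and 52.3% and 40.1% on heavy polysomes.

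Other members were placed on monosomes. Copz2-203, from the zeta subunit of the COPI coat, was at 38.4 and 81.9 FPKM in chow monosomes, 1.98 and 3.90 in light polysomes and 0 in both cytoplasmic and both heavy polysome libraries (adjusted p = 1.64e-05). Its protein_coding partners stood at 46.7 and 24.1 FPKM in monosomes and at 69.4 and 64.9 on heavy polysomes. Swi5-203, from a recombination repair gene, was at 33.5 and 50 FPKM in chow monosomes and at 0 on chow heavy polysomes (adjusted p = 0.000234). Tmem126a-202, from a gene for assembly of respiratory complex I, was at 23.6 and 24.5 FPKM in chow monosomes and at 0 on heavy polysomes of both diets (adjusted p = 2.82e-05 in chow and 0.00234 in DDC).

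Vti1b-203, from a SNARE of endosomal fusion, was lower on heavy polysomes in both diets. It was at 83.5 and 116 FPKM in chow monosomes against 2.73 and 7.71 on heavy polysomes, a log2 difference of -4.12 (SE 0.45, adjusted p = 9.01e-05). In DDC it was at 23.0 and 10.2 FPKM against 0.622 and 0.00537, and fell by 3.68 (SE 0.45, adjusted p = 0.000648). Its partners stood at 65.2 and 87.8 FPKM in chow monosomes against 2.88 and 8.71 on heavy polysomes, and the member's share at 56.2% and 55.8% against 48.6% and 46.9%.

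In DDC the members named for the largest rises by level were Ddx5-205, Glod4-207 and Kyat3-204, and for the largest falls Vti1b-203, Slc46a1-202 (the folate transporter of the gut and liver) and Mocs2-211 (molybdopterin synthase). Mocs2-211 was at 12.9 and 7.69 FPKM in DDC monosomes and at 0 and 0.0161 on heavy polysomes, a log2 difference of -3.45 (SE 0.49, adjusted p = 0.0012). Kyat3-204 was at 0 and 0.414 against 8.47 and 8.68 FPKM (adjusted p = 0.0424), and it was not called in any of the fits without 1 of the 4 libraries. Slc46a1-202 was at 8.58 and 16.2 against 0.115 and 0.00163 FPKM (log2 difference -3.6, SE 0.90, adjusted p = 0.019), and its call was lost without 3 of the 4 libraries, with adjusted p of 0.0667 to 0.0989 (DDC monosome replicate 2 and both heavy polysome libraries). Glod4-207 was at 0 and 0.643 against 11.7 and 8.31 FPKM, a rise of 3.09 (SE 0.65, adjusted p = 0.00859), which missed the threshold without DDC monosome replicate 1 (adjusted p = 0.0541).

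On the ratio, some of the largest values rested on partners at almost 0. Ikbkb-203, from the kinase IKK beta of the NF-kappa B pathway, was at 0.000224 and 0.000103 FPKM in chow monosomes and 4.36 and 5.90 on heavy polysomes, while the protein_coding transcripts stood at 5.58 and 6.14 in monosomes and 0.000489 and 0.000486 on heavy polysomes. The ratio rose by 11.58 (SE 1.40, adjusted p = 0.000602). Sh2b1-209, from a signalling adaptor gene, was at 5.26 and 7.20 FPKM in chow monosomes and 0.00259 and 0.000327 on heavy polysomes, with partners at 0.781 and 0 against 9.09 and 3.74 (ratio difference -10.27, SE 1.51, adjusted p = 0.00156). Ufsp2-204, from a protease of the UFM1 system, was at 2.62 and 13.6 against 0.000559 and 0 FPKM (ratio difference -10.88, SE 2.21, adjusted p = 0.00842). In Ikbkb and Sh2b1 the member and its partners traded places between the fractions, at levels under 10 FPKM. For Ufsp2 the partners stood at 11 and 0.000474 FPKM in chow monosomes and 26.5 and 39.9 on heavy polysomes, so the monosome replicates differed in which isoform was listed. When partners had to reach 1 FPKM in each library compared, fewer members could be tested. Of 643 in chow 136 were called, 50 higher and 86 lower, and of 763 in DDC 15. The share over all transcripts under this rule is not given here.

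Grwd1-203 and Hnrnpll-203, from a ribosome assembly chaperone and a splicing regulator, were named by the same rule. The partners of Grwd1-203 were listed at 0 in both chow monosome libraries, where the member stood at 6.73 and 6.20 FPKM; on heavy polysomes the member was at 0 and 11.5 and the partners at 35.0 and 14.6 (ratio adjusted p = 0.0114, and 0.135 without the chow libraries of replicate 1). Hnrnpll-203 was at 0 in chow monosomes and at 1.67 and 2.54 FPKM on heavy polysomes, where its partners were listed at 0 (ratio adjusted p = 0.0189). The latter call was lost without chow monosome replicate 2 (adjusted p = 0.0771), either chow heavy polysome library (0.0511 and 0.0691) or the chow libraries of replicate 1 (0.159).

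Few members changed their ratio in both diets, and Ddx5-205 did so in the direction of heavy polysomes. Ddx5 encodes an RNA helicase of splicing and transcription. Ddx5-205 was at 0 in the monosome libraries of both diets, at 21 and 29.9 FPKM on chow heavy polysomes and at 7.52 and 7.66 FPKM on DDC heavy polysomes (ratio adjusted p = 5.87e-05 and 0.00931). Its partners were at 44.8 and 27.4 FPKM in chow monosomes and 21.7 and 20.5 on heavy polysomes. Bzw1-203, from a gene for a translation regulator, was likewise at 0 in all 4 monosome libraries and at 5.13 and 4.54 FPKM on chow and 3.80 and 2.61 on DDC heavy polysomes (ratio adjusted p = 0.00306 and 0.0477, the latter 0.0646 with the block and 0.0716 to 0.184 without each of the 4 DDC libraries). Ufd1-209, from a cofactor of the segregase p97, was at 18.3 and 10.1 FPKM on chow heavy polysomes against 0.0244 and 0 in monosomes, and at 8.16 and 3.28 against 0 and 0 in DDC (ratio adjusted p = 0.00211 and 0.0441). The DDC call was lost with the block (0.0677) and without 3 of the 4 DDC libraries (0.0777 to 0.171), and the chow call without the chow libraries of replicate 1 (0.0518).

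In the other direction in DDC, Chmp2a-205, Cd300c2-202 and Surf1-209 had the largest falls of the ratio. Chmp2a-205, from a subunit of the ESCRT-III membrane scission complex, was at 7.06 and 4.14 FPKM in DDC monosomes and at 0 on heavy polysomes and in all chow libraries, while its partners stood at 71.8 and 71.8 against 427 and 327 FPKM (ratio adjusted p = 0.00931, and 0.061 without the chow libraries of replicate 1). Surf1-209, from a gene for cytochrome oxidase assembly, was at 7.92 and 3.88 against 0 and 0 FPKM in DDC and 9.20 and 8.09 against 1.54 and 0 in chow (ratio adjusted p = 0.0211 and 0.00488). Its DDC call was lost without DDC monosome replicate 1 (0.105) or DDC heavy polysome replicate 1 (0.0743). Cd300c2-202, from a receptor gene of myeloid cells, was at 3.54 and 2.23 against 0 and 0.0845 FPKM in DDC (ratio difference -7.05, SE 1.07, adjusted p = 0.0142; lost when DDC heavy polysome replicate 1 was left out, 0.0587) and stayed at 0.231 FPKM or below in chow. The summed macrophage markers given above were also higher in DDC, and their part in this was not tested. Among DDC monosomes, DDC heavy polysomes and the chow libraries, Chmp2a-205 and Cd300c2-202 reached 1 FPKM only in DDC monosomes. The rule by which members were chosen thus favours their falls, and these p-values are no independent support.

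The diets were compared in cytoplasm first. By level 67 of 1190 members were called, 41 higher and 26 lower in DDC, beside 10% of all transcripts (5.52% higher and 4.52% lower), above the members' 5.63%. With equal totals 120 were called, 81 higher and 39 lower. Without any 1 of the 4 libraries 19 to 31 were called, and without the 4 chow libraries of replicate 1, which leaves 1 chow library a group and takes its spread from the other groups, 17 (4 higher and 13 lower). On the ratio 4 members were called, 2 higher and 2 lower, beside a background of 0.568% (0.326% higher and 0.242% lower); 47 had an unadjusted p under 0.05.

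All 4 members with a changed ratio belong to the named set. Stard10-209 was at 7.33 and 7.15 FPKM in chow cytoplasm and at 277 and 250 in DDC, a rise of 5.00 on the log2 scale (SE 0.53, adjusted p = 0.000354). Its share of Stard10 was 1.01% and 0.908% against 34.2% and 33.2%, as the protein_coding transcripts stood at 716 and 780 FPKM in chow and 532 and 502 in DDC. The ratio rose by 5.70 (SE 0.73, adjusted p = 0.00587), with an adjusted p of 0.0623 to 0.0850 without chow cytoplasm replicate 1, chow cytoplasm replicate 2 or DDC cytoplasm replicate 1, and of 0.0890 without the chow libraries of replicate 1. In the fractions its share was 0.387% to 5.81% in chow and 19.6% to 28.3% in DDC, without overlap.

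Rpl13a-205 moved the other way. It was at 115 and 124 FPKM in chow cytoplasm and at 19.9 and 10.9 in DDC, a log2 difference of -2.94 (SE 0.43, adjusted p = 0.00207, and 0.0888 without the chow libraries of replicate 1). Its share of Rpl13a was 16.6% to 24.9% in the 8 chow libraries and 2.00% to 7.62% in the 8 DDC libraries, so the diets did not overlap in any fraction. The ratio fell by 3.62 in cytoplasm (SE 0.68, adjusted p = 0.0491), a call lost without any 1 of the 4 libraries (0.240 to 0.354) and with the block (0.0874). Rpl13a has several processed copies in the genome, and how shared reads were divided is not given in the sources used here.

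Ddx5-205 was at 20.8 and 14.8 FPKM in chow cytoplasm and listed at 0 in both DDC cytoplasmic libraries (level adjusted p = 1.68e-05, ratio 0.00184), with partners at 73.1 and 69.5 against 43.4 and 47.0 FPKM. The level call was kept in every alternative that was run, and the ratio call was lost without the chow libraries of replicate 1 (0.0837). Copz2-203 was at 0 in both chow cytoplasmic libraries and at 4.71 and 2.79 FPKM in DDC (level adjusted p = 0.0107, ratio 0.019). Both Copz2-203 calls were lost in fits without single libraries, with an adjusted p of up to 0.0949 for the level and up to 0.196 for the ratio.

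Further members with large level changes in cytoplasm were Tm2d3-210, Cfb-203 and N4bp2l1-202. Cfb-203, from complement factor B, was at 5.38 and 7.60 FPKM in chow and 102 and 77.2 in DDC (log2 difference 3.6, SE 0.81, adjusted p = 0.0196). Its partners stood at 660 and 742 against 2374 and 1669 FPKM, and its share was 0.808% and 1.01% against 4.13% and 4.42%. Tm2d3-210 was at 0.884 and 0.00118 against 28.5 and 14.4 FPKM, a rise of 3.96 (SE 0.72, adjusted p = 0.00697), and on heavy polysomes at 0.0211 and 4.53 against 28.9 and 16.4 FPKM (adjusted p = 0.0124, lost without replicate 1 of either heavy polysome group, 0.0606 and 0.0678). N4bp2l1-202 was at 11.1 and 13.8 against 0.452 and 0.603 FPKM, a log2 difference of -3.14 (SE 0.64, adjusted p = 0.0118). The 3 calls were lost in fits without single libraries, with adjusted p of up to 0.121 for Cfb-203, 0.0724 for Tm2d3-210 and 0.0883 for N4bp2l1-202.

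**Figure D5:**
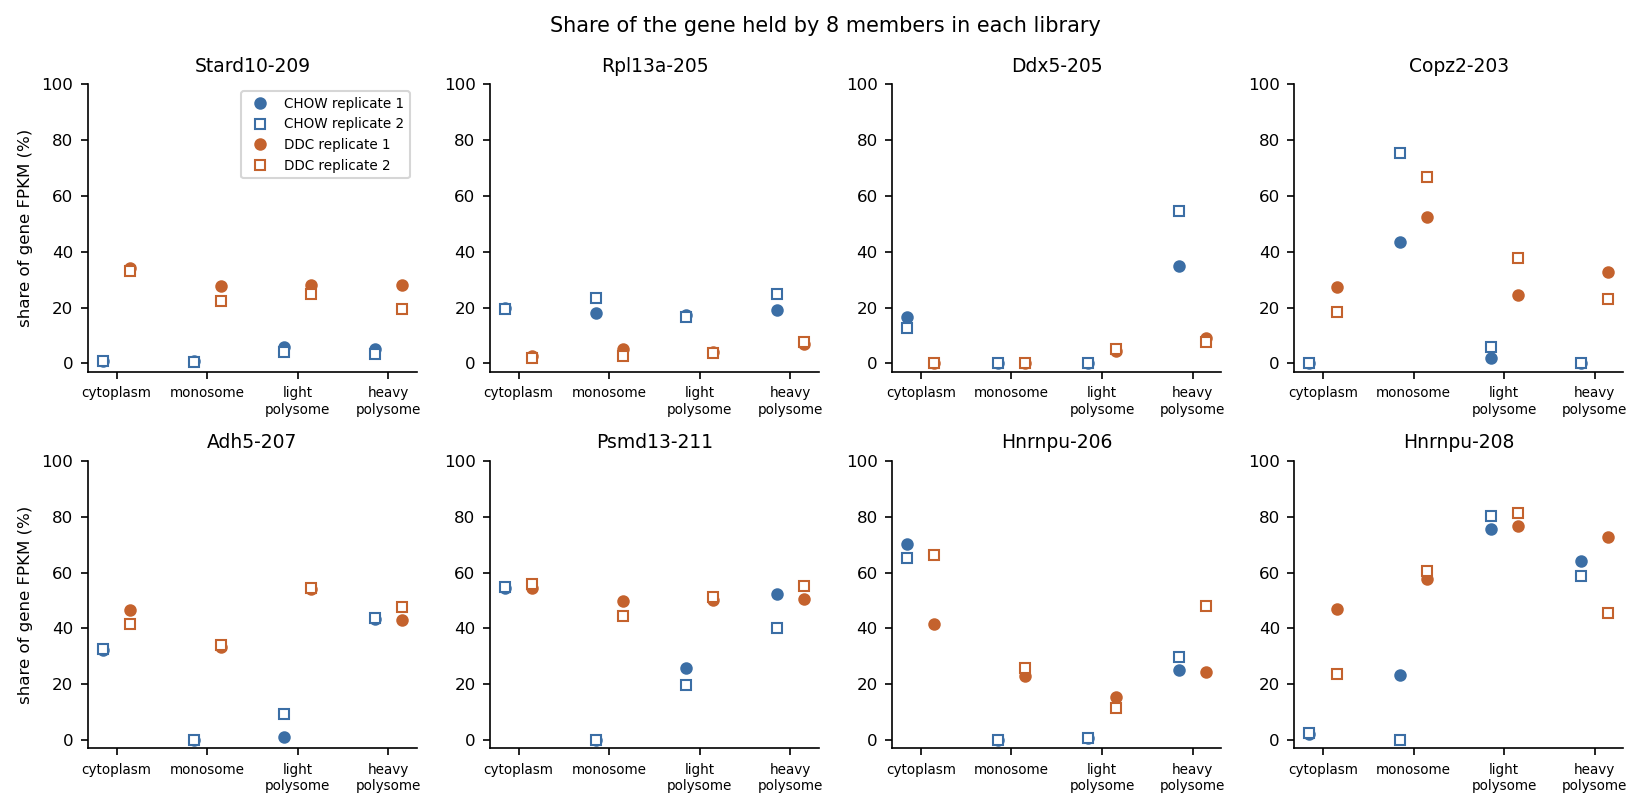
Share of the gene's FPKM (vertical axis, percent) held by 8 members in each library by fraction (horizontal axis), blue for CHOW and orange for DDC, filled circles for replicate 1 and open squares for replicate 2. Stard10-209 and Rpl13a-205 separate the diets in every fraction, while Adh5-207, Psmd13-211 and Hnrnpu-206 are at 0 in chow monosomes and at 22.8% to 49.9% in DDC monosomes.

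On heavy polysomes 122 of 1189 members differed in level between the diets, 52 higher and 70 lower in DDC, beside 14.7% of all transcripts (7.92% higher and 6.75% lower) and against 10.3% of members. With equal totals the split turned to 52 higher and 29 lower. This scaling moved the median of all transcripts by 0.19, and abundant transcripts by more. Summed FPKM was 1379630 and 1359984 on chow and 1089500 and 855954 on DDC heavy polysomes. On the ratio 42 of 1060 members were called, 19 higher and 23 lower, beside a background of 3.59% (2.00% higher and 1.59% lower) and near it at 3.96%; without chow heavy polysome replicate 1 there were 78. For 28 of the 42 a compared group was listed at 0.

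Slc6a8-202, from the creatine transporter gene, was higher in every DDC library than in every chow library. It was at 0.27 and 0 FPKM on chow and 9.43 and 5.38 on DDC heavy polysomes, a rise of 2.86 (SE 0.35, adjusted p = 0.000562). In the other chow libraries it was at 0.329 to 2.16 FPKM and in the other DDC libraries at 5.73 to 18.5. Its partners stood at 0.33 FPKM or below in chow and 1.34 to 6.02 in DDC, and its ratio was not called between the diets. Copz2-203 was at 0 on both chow and at 19.4 and 12.1 FPKM on both DDC heavy polysome libraries (level adjusted p = 0.000278, ratio 0.00127), and these calls were kept in every alternative.

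Members lower in DDC on heavy polysomes included Pnpla2-204 and AI182371-202. Pnpla2-204, from the adipose triglyceride lipase gene, was at 6.54 and 29.6 against 0.00176 and 0.00447 FPKM, a log2 difference of -3.92 (SE 0.90, adjusted p = 0.015), lost without chow heavy polysome replicate 2 (0.102) or either DDC library (0.0555 and 0.0632). AI182371-202 was at 33.7 and 19.6 against 0.00132 and 7.03 FPKM (log2 difference -3.24, SE 0.88, adjusted p = 0.0322), lost without either chow library or DDC heavy polysome replicate 1, with adjusted p of 0.0693 to 0.186.

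Largest by ratio on heavy polysomes were Copz2-203, Pde9a-208 and Retreg2-204 among rises, and Ikbkb-203, Fam214b-207 and Il17rb-203 among falls. Pde9a-208, from a cyclic GMP phosphodiesterase gene, was at 0.00287 and 0.00946 FPKM on chow and 2.73 and 1.45 on DDC heavy polysomes, with partners at 25 and 21.2 against 0.99 and 8.90 (ratio difference 7.19, SE 1.18, adjusted p = 0.00889; 0.0734 without the chow libraries of replicate 1). Retreg2-204, from a gene of the endoplasmic reticulum, was at 0 on chow and at 1.38 and 10.8 FPKM on DDC heavy polysomes (ratio adjusted p = 0.0236, and up to 0.0924 without single libraries). Il17rb-203 was at 4.69 and 2.11 FPKM on chow and 2.69 and 0 on DDC, while its partners stood at 0.000188 and 0.000183 against 7.68 and 9.91 FPKM (ratio difference -9.08, SE 1.61, adjusted p = 0.0122, 0.103 without the chow libraries of replicate 1). Fam214b-207 was at 2.77 and 2.96 against 0 and 0.00403 FPKM, with partners at 0 on chow and 5.04 and 3.81 on DDC (ratio adjusted p = 0.0413, 0.0684 with the block and 0.0769 to 0.128 without each of the 4 libraries).

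The last comparison asked whether the diet changed the placement itself, as the difference between the diets in heavy polysomes against monosomes on the ratio. It called 32 of 1060 members, 12 with a more heavy-polysome placement in DDC and 20 with a less, beside 2.46% of all transcripts (1.25% and 1.21%) and near it at 3.02%. With the replicate number within each diet as a block 21 were called (8 and 13). Leaving out chow monosome replicate 1 gave 90, chow heavy polysome replicate 1 gave 51, DDC monosome replicate 1 gave 21 and DDC heavy polysome replicate 1 gave 19. In 24 of the 32 a compared group was listed at 0, as for Adh5-207, whose share in monosomes was 0 in both chow and 33.2% and 34.0% in DDC libraries, while on heavy polysomes it was 43.4% and 43.6% in chow and 43.0% and 47.8% in DDC.

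Ribosomal protein genes held 13 members in 10 genes. Of these, 6 were lower on chow heavy polysomes than in monosomes and none was higher, with a median of -1.18 beside 0.00 over all transcripts, of which 14.1% were lower and 17.5% higher. Rpl12-201 was at 337 and 345 FPKM in chow monosomes and 177 and 127 on heavy polysomes (log2 difference -1.18, SE 0.30, adjusted p = 0.0112), and its partners stood at 291 and 350 against 192 and 142. Rps19-205 was at 153 and 118 against 0 and 39.3 FPKM (adjusted p = 0.0214), with partners at 943 and 1160 against 415 and 455. Rpl13a-202 was at 763 and 846 against 236 and 225 FPKM (log2 difference -1.80, SE 0.56, adjusted p = 0.0305). The calls on Rpl12-201, Rps19-205 and Rpl13a-202 were lost in fits without single libraries, with adjusted p of up to 0.0788, 0.0828 and 0.114.

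On the ratio the ribosomal protein list had 1 member higher and 1 lower in chow, near the 16% called of all transcripts. In DDC none was called on either measure, beside 18.3% by level and 2.25% on the ratio. Without the chow libraries of replicate 1, 1 of the 13 was lower by level in chow. Between the diets in cytoplasm 2 were lower by level, beside 4.52% of all transcripts. Both are of Rpl13a and so are not independent. Rpl13a-216 was at 31.1 and 61.9 FPKM in chow and 8.01 and 4.84 in DDC cytoplasm (log2 difference -2.63, SE 0.43, adjusted p = 0.00375) and at 157 and 195 against 32.5 and 35.7 on heavy polysomes (log2 difference -2.33, SE 0.43, adjusted p = 0.00482). Both calls were lost without the chow libraries of replicate 1 (0.0617 and 0.0583), where none of the 13 was called by level in either diet comparison. Rpl27a-205, at 3.17% and 3.62% of its gene in chow cytoplasm, was not called in any comparison.

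Genes of SR proteins, hnRNPs and other splicing regulators held 44 members in 30 genes. By level 10 were higher and 4 lower on chow heavy polysomes than in monosomes, with a median of 0.00, beside 17.5% higher and 14.1% lower over all transcripts, so the list's 14 calls lie near the background. In DDC 1 was higher (Hnrnpu-206) and 1 lower (Pcbp4-202, named after its values were seen), beside 10.5% and 7.80%. On the ratio 8 were higher and 4 lower in chow and 1 was lower in DDC, beside backgrounds of 16% and 2.25%. Between the diets in cytoplasm 2 were higher in DDC by level and none was lower, beside 10%, and on heavy polysomes 3 were lower, beside 14.7%. The 2 in cytoplasm became 0 without the chow libraries of replicate 1, and the 3 on heavy polysomes became 0 with equal totals. With equal totals the chow split by level was 6 higher and 6 lower, and without the chow libraries of replicate 1 it was 6 and 4, with 5 and 5 on the ratio.

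The paired isoforms of Hnrnpu, a nuclear scaffold RNA-binding protein, differed in where they were found in chow. Hnrnpu-206 was at 36.6 and 29.2 FPKM in chow cytoplasm, 0 in monosomes, 0.185 and 0.199 in light polysomes and 10.9 and 12.3 on heavy polysomes. Hnrnpu-208 was at 1.2 and 1.1 FPKM in chow cytoplasm, 3.6 and 0 in monosomes, 25.3 and 27.4 in light polysomes and 28.0 and 24.2 on heavy polysomes. In chow Hnrnpu-206 thus led in cytoplasm and Hnrnpu-208 in polysomes, although both end at the stop codon shown above.

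Hnrnpu-206 and Hnrnpu-208 were called between chow heavy polysomes and monosomes (adjusted p = 1.76e-05 and 0.00128). In DDC cytoplasm Hnrnpu-208 was at 37.3 and 15.5 FPKM, a rise of 3.54 over chow (SE 0.62, adjusted p = 0.00585), which missed the threshold without DDC cytoplasm replicate 1 (0.0612) or without the chow libraries of replicate 1 (0.0561). Srsf1-204, from the founding SR protein gene, was at 2.73 and 4.60 FPKM in chow and 28.9 and 13.2 in DDC cytoplasm, a rise of 2.18 (SE 0.41, adjusted p = 0.00844, and up to 0.131 in the alternatives). Sf1-201, Hnrnpdl-205 and Hnrnpd-208 were not called in any comparison, with ranges over the 16 libraries of 1.31 to 10.9, 1.39 to 13.2 and 0.187 to 10.9 FPKM. Srsf3-201, named after its values were seen, was lower on heavy polysomes on the ratio in chow, at 3.64 and 4.09 against 0 and 0 FPKM. In DDC it was at 2.95 and 5.25 against 0.184 and 3.08 FPKM, which overlap. Its DDC call (adjusted p = 0.0443) was lost with the block (0.0641), without DDC monosome replicate 1 (0.157), DDC monosome replicate 2 (0.0952) or DDC heavy polysome replicate 1 (0.179), without the chow libraries of replicate 1 (0.116), and against all other transcripts of the gene (0.079).

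Of 27 members in 26 genes of the mitochondrial ribosome and oxidative phosphorylation, 6 were higher and 6 lower on chow heavy polysomes by level, beside 31.6% called of all transcripts. On the ratio 1 was higher and 7 lower of 24, with a median of -2.82 beside -0.23 over all transcripts tested, of which 16% were called. In DDC 6 were higher and 2 lower by level, beside 18.3%, and none was called on the ratio, where the median was -1.07 and the background 2.25%. With equal totals the chow split by level was 3 higher and 7 lower, and without the chow libraries of replicate 1 it was 3 and 4, with 1 and 3 on the ratio. Plasma protein genes had 13 members, of which 5 were higher and none lower on chow heavy polysomes by level, beside 17.5% and 14.1% of all transcripts. In DDC none was higher and Fn1-210 was lower, beside 10.5% and 7.80%. On the chow ratio none of 12 was higher and Azgp1-202 was lower, beside 6.79% and 9.19%. Genes of xenobiotic and small-molecule metabolism had 12, with 3 higher and none lower by level in each diet, and 2 higher and 1 lower on the ratio in chow. The shares higher and lower over all transcripts were 17.5% and 14.1% in chow, 10.5% and 7.80% in DDC and 6.79% and 9.19% on the chow ratio. Translation factors had 12, with 1 higher and 3 lower by level in chow, near the 31.6% called of all transcripts. In DDC there were 1 and 1, near the 18.3%. With equal totals the chow split of translation factors was 0 and 4. The remaining 4 members belonged to genes known for upstream reading frames or the stress response. Over all transcripts 31.6% were called by level in chow and 18.3% in DDC, and 4 members are too few to set against these shares. Azin1-205, from the antizyme inhibitor gene, was the one called in chow, at 7.01 and 15.7 FPKM in monosomes against 0 and 1.34 on heavy polysomes (log2 difference -2.92, SE 0.45, adjusted p = 0.000671). In DDC Mdm2-209, from the ubiquitin ligase of p53, was at 3.44 and 3.93 against 0.557 and 0 FPKM (log2 difference -1.91, SE 0.54, adjusted p = 0.0338), lost without any 1 of the 4 libraries (0.0592 to 0.155). Sat1-207, from the polyamine acetyltransferase gene, was at 3.04 and 3.77 against 0 and 0.307 FPKM in DDC (log2 difference -1.94, SE 0.26, adjusted p = 0.000914). Hspa5-204, from the chaperone BiP, was at 23.1 and 10.1 FPKM in chow and 8.87 and 29.5 in DDC cytoplasm and at 3.79 or below in the fractions, and was not called.

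The genes of the decay pathway itself were compared as sums over all their transcripts. Of 22 listed genes 21 were tested. None was called between the diets in cytoplasm, beside 22.4% of all genes, where 1 of the 21 had an unadjusted p under 0.05, 1 was called when totals were equal and 1 with the block. On heavy polysomes 3 were higher in DDC and none lower, beside 24.8%. They were Gspt1, the release factor eRF3, at 37.5 and 50.7 against 80.7 and 78.8 FPKM (log2 difference 0.85, SE 0.24, adjusted p = 0.0201), Dhx34, a helicase that acts with UPF1, at 7.72 and 3.90 against 15.4 and 9.07 (0.97, SE 0.31, adjusted p = 0.0372), and Magohb, of the exon junction complex, at 2.58 and 0 against 4.90 and 4.85 (1.64, SE 0.50, adjusted p = 0.0323). Upf1 was at 11.4 and 10.5 FPKM in chow and 13.6 and 9.78 in DDC cytoplasm and was not called in any comparison.

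Between heavy polysomes and monosomes 7 pathway genes were higher and 6 lower in chow, beside 44.7% of all genes, with 4 and 8 at equal totals and 2 and 3 without the chow libraries of replicate 1. In DDC 7 were higher and 2 lower, beside 32.7%, and 4 and 2 with equal totals. Ruvbl1, an ATPase that assembles the SMG1 kinase complex, was at 2.14 and 0.751 FPKM in chow monosomes and 24.0 and 17.8 on heavy polysomes (log2 difference 3.21, SE 0.30, adjusted p = 1.43e-05). Magoh, of the exon junction complex, was at 27.4 and 29.9 against 89.6 and 80.9 FPKM (1.54, SE 0.25, adjusted p = 0.000368). In the other direction Pnrc2, which links UPF1 to decapping, was at 12.1 and 11 against 1.97 and 1.61 FPKM (-2.17, SE 0.28, adjusted p = 9.96e-05). Members from 2 of these genes numbered 3 (Smg6-202, Magohb-202 and Magohb-203), and none was called in any comparison. Smg6-202 held 67.4% to 100% of Smg6, the endonuclease of the pathway, at 1.1 to 4.0 FPKM.

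The placement of members varied a little with the distance from stop codon to last junction. On the ratio the median difference between chow heavy polysomes and monosomes was -0.62 for 136 members with up to 100 bases, -0.68 for 225 with up to 200, -0.78 for 272 with up to 400, -0.45 for 238 with up to 800 and -0.09 for 190 with more. In DDC the medians in the same classes were -0.62, -0.42, -0.35, -0.41 and -0.10. By length of the reading frame the chow medians were -0.85 up to 150 bases (189 members), -0.68 up to 300 (395), -0.57 up to 600 (298), 0.10 up to 1200 (126) and -0.33 above (53). These classes are descriptions, and the classes share genes and overlap in transcript length: by length the chow median was -0.87 for 140 members of up to 600 bases and -0.38 for 180 of more than 2500. By kind of difference from the main transcript it was -0.50 for an extra exon (250), -0.61 for a skipped exon (326), -0.36 for another splice site (411) and -1.39 for a retained intron (19).

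All p-values come from 2 libraries a group with the spread pooled over 8 groups, and 66 of 163 calls on named members were kept in all alternatives run for them, while 97 were lost in at least 1. Without the 4 chow libraries of replicate 1, 66 of the 163 were lost.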

How the data were processed

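The authors deposited FPKM per transcript for 16 libraries, scaled with Cuffnorm; the submitters' processing notes also list STAR 2.4.2a, Picard 1.119, Trimmomatic, bcl2fastq 2.17.1.14 and the build GRCm38. Cuffnorm options and the annotation release are not given in the sources used here. FPKM of isoforms that share sequence are estimates, so members of 1 gene are not independent. Of 117592 rows, 116728 matched GENCODE M21 transcripts, 94.6% by version. Transcripts with 1 FPKM in 2 libraries were fitted with limma 3.58.1 (R 4.3.3; 8 group means, variance trend, 8 residual and 2.64 or 2.59 prior degrees of freedom, Benjamini-Hochberg adjustment over all transcripts), as log2(FPKM + 1) and as the ratio with 0.1 FPKM added. A gene at 0 in both libraries of a group but at 100 FPKM or more elsewhere (61 genes, 1 member) was not tested there. The fits were also run on simulated data with normal noise around transcript means. These held no groups listed at 0, so they do not cover calls with such a group.

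Members and lists were chosen with earlier results of these data known. Named were the 12 members of highest mean FPKM, the 3 largest called differences in each direction and comparison among members with a group mean of 2 FPKM and replicates that did not overlap, and up to 6 per list of splicing, ribosomal protein, decay and stress genes; predicted genes were left out, and 1 member that the rule selects is not reported here. The gene sums of decay factors, the list counts under other settings, the rule on genes at 0 and the partner minimum were added after seeing the data. The labels pair fractions of 1 preparation within a diet, not the diets: correlations of replicate differences were 0.128 to 0.382 for pairs of chow groups, 0.136 to 0.185 for pairs of DDC fractions, 0.0531 to 0.202 where a pair held DDC cytoplasm, and -0.177 to 0.0298 across diets.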

Additional observations from a re-analysis of the deposited data

Results flagged for a closer look

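The placement of 32 members, as the isoform ratio between heavy polysomes and monosomes, differed between the diets by limma's interaction term (adjusted p under 0.05). The 3 largest differences towards DDC heavy polysomes were fitted at 11.52 on the log2 scale for Spns1-206 (adjusted p = 0.0179), 10.5 for Nle1-206 (adjusted p = 0.0427) and 10.32 for Pde9a-208 (adjusted p = 0.0129). The 3 largest in the other direction were fitted at -13.72 for Ikbkb-203 (adjusted p = 0.00894), -10.95 for Arih2-209 (adjusted p = 0.00751) and -8.75 for Adh5-207 (adjusted p = 0.00894). All 6 rest on a member or partner sum at or near 0, so each fitted size depends on the 0.1 FPKM that was added and is no bound. Over the alternatives they ranged from 6.66 to 14.32 for Spns1-206, 5.32 to 13.59 for Nle1-206, 4.92 to 12.28 for Pde9a-208, -16.0 to -6.27 for Ikbkb-203, -11.51 to -4.94 for Arih2-209 and -8.92 to -5.48 for Adh5-207.

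Spns1-206, from a lysosomal phospholipid transporter gene, was at 5.26 and 4.71 FPKM in chow monosomes, 0 and 0.000708 on chow heavy polysomes, 0 in DDC monosomes and 5.49 and 0 on DDC heavy polysomes, so the DDC heavy polysome replicates differed. Arih2-209, from an E3 ubiquitin ligase gene, was at 0 in chow monosomes and 5.17 and 2.20 FPKM on chow heavy polysomes, and at 2.32 and 3.29 against 0 and 0 in DDC. Nle1-206, from a ribosome assembly gene, was at 2.74 and 6.42 against 0 and 3.53 FPKM in chow and 1.13 and 0.833 against 6.85 and 8.01 in DDC, with partners listed at 0 in chow monosomes. Without the 4 chow libraries of replicate 1 the adjusted p was 0.102 for Spns1-206, 0.0572 for Pde9a-208 and 0.0582 for Ikbkb-203. The Nle1-206 call was also lost with the block (0.0769) and without single libraries, with adjusted p of up to 0.109. The Arih2-209 and Adh5-207 calls were kept in every alternative run.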

How the results depend on the processing

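By level, the called members between the diets in cytoplasm numbered 67, with 120 at equal library totals, 17 without the 4 chow libraries of replicate 1 and 19 to 31 without single libraries. On heavy polysomes the 122 became 81 at equal totals and 66 with no filter, and for heavy polysomes against monosomes in DDC the 147 became 86 with no filter. On the ratio, the 4 called in cytoplasm became 13 with 1 FPKM added, 10 with no filter, 0 without the chow libraries of replicate 1 and 1 to 2 without single libraries. The 42 on heavy polysomes became 79 with no filter and 32 to 78 without single libraries. The 179 for heavy polysomes against monosomes in chow became 282 with 1 FPKM added, and the 15 in DDC became 39 with 1 FPKM added, 43 with no filter, 6 with the replicate block, 8 without the chow libraries of replicate 1 and 7 to 30 without single libraries. The 32 of the interaction became 21 with the replicate block, 52 without the chow libraries of replicate 1 and 19 to 90 without single libraries. The other totals of called members stayed within 1.5 times, and no named result reversed. Splits moved more: at equal totals members higher on heavy polysomes went from 149 to 84 in chow and from 69 to 35 in DDC. Without the chow libraries of replicate 1, ribosomal protein members lower in chow went from 6 to 1, and decay pathway genes from 7 higher and 6 lower to 2 and 3. Of 2325 recomputations of 238 named results, 1965 kept their side of the threshold, 340 lost it and 20 gained it; the causes were not tested. The replicate block moved no other total of called members by more than 1.5 times. The libraries of 10.9 to 16.9 steps in 1 FPKM (chow heavy polysomes, DDC heavy polysome replicate 1 and chow monosome replicate 2) limit what can be said of members at a few FPKM.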
